A study of Drosophila melanogaster with 8 samples.

Results

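SIN3 is the scaffold of a histone deacetylase complex that is best known for repressing transcription at gene promoters. In Drosophila, alternative splicing of Sin3A gives several isoforms, and SIN3 187 and SIN3 220 share most of their sequence but differ at the C-terminal end and in some of the proteins that they bind. SIN3 is known to bind mostly near transcription start sites. The sites described here stand apart from other sites. They are 244 isolated regions of 6219 bound regions (3.92%, 95% exact binomial interval 3.45 to 4.44%), each at least 25000 bp away from the next bound region on both sides. To find them, the 2 lists of filtered peaks were joined, peaks sharing at least 1 bp were merged into regions, and the first and the last region of each chromosome were left out because a gap on 1 side was unknown. Positions are on the dm3 build and count from 1.

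S2 cells, a Drosophila line of embryonic origin, were the source of the peaks, which were mapped by ChIP-seq (sequencing of the DNA that is precipitated with a chromatin protein). There were 4 groups of 2 replicates, 8 samples in all: anti-HA precipitates and input DNA from a line stably transfected with HA-tagged SIN3 187, and the same from a line stably transfected with HA-tagged SIN3 220. Both transgenes sat behind a metallothionein promoter and both lines kept the endogenous Sin3A gene. Copper was added to induce SIN3 187HA but not SIN3 220HA, which was already made at its highest level through leakage of the promoter. In cells making SIN3 187HA, the SIN3 220 protein was almost completely lost compared with untransfected S2 cells. Isoform, copper and this loss of SIN3 220 therefore cannot be told apart. The deposited lists hold peaks called on joined replicates, which leaves 1 value per isoform and region, no spread between replicates and no test. Intervals below are 95% exact binomial intervals for shares and order-statistic intervals for medians, and both cover counting error only, with regions as the units. Nothing here sets a member against chance.

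The members were chosen by the positions of the filtered peaks and, through the filter, by a fold enrichment of at least 3, so isolation is described and not tested. Over the genome, neighbouring regions lay a median of 4766 bp apart, and 1064 of 6208 gaps (17.1%) reached 25000 bp. Among the isolated regions, the shorter of the 2 gaps had a median of 40590 bp (37731 to 43686) and the longer gap a median of 88590 bp (75056 to 101784). Both gaps reached 50000 bp at 78 members and 100000 bp at 15. The most remote member, chr3LHet:1546272-1546498, had 951428 bp to its left and 697021 bp to its right. It was followed by chr3L:23688975-23689359, with 569353 and 331937 bp, and by chr2L:15498920-15501196, with 223548 and 244223 bp. The other members with the longest shorter gap were chr2R:358134-358531, with 200039 and 779371 bp, and chrX:12097379-12098231, with 174118 and 258316 bp. These 5 had different isoforms and strengths. The regions on 3LHet, 2L and 2R held both isoforms, with SIN3 187HA fold enrichments of 3.78, 6.98 and 3.84 and SIN3 220HA fold enrichments of 4.42, 5.42 and 5.29. The regions on 3L and X held SIN3 220HA alone, at 3.11-fold and 5.68-fold.

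**Figure D1:**
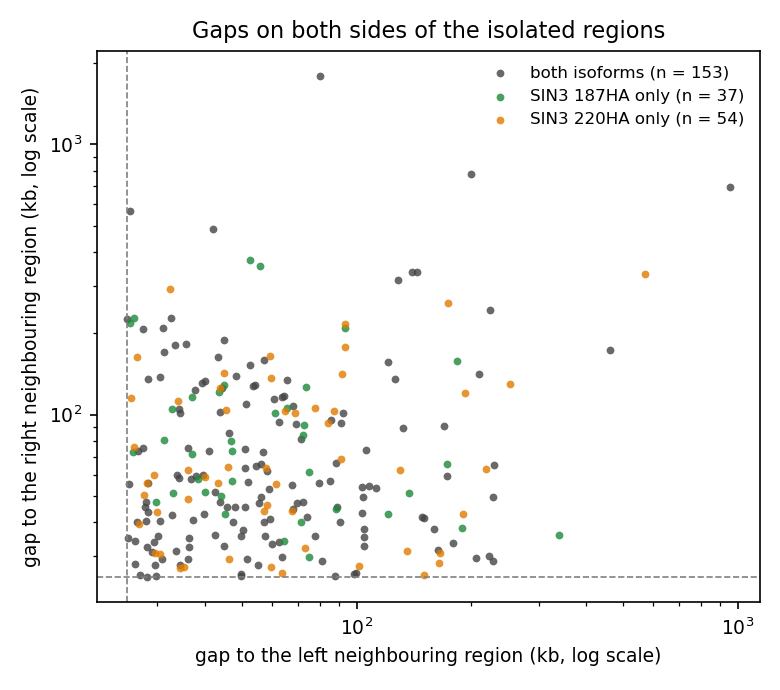
Each point is 1 of the 244 isolated regions, placed by its gap to the left and to the right neighbouring region in kb, both axes on a log scale, and coloured by the isoforms it holds. The dashed lines mark the 25 kb limit, and members of all 3 kinds lie close to it. The longest gap drawn is 1795105 bp, to the right of the 2RHet member, and the member farthest from both neighbours has gaps of 951428 and 697021 bp.

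The members just inside the threshold were chrX:18812869-18813654 and chrX:18787482-18787846, which are each other's neighbour at 25022 bp, and chrX:11415195-11416558 at 25136 bp. All 3 held both isoforms, with SIN3 187HA fold enrichments of 5.76, 4.74 and 4.87 and SIN3 220HA fold enrichments of 4.83, 4.40 and 5.19. Just outside lay chr3R:12439870-12440417 at 24958 bp, chrX:2115606-2116810 at 24900 bp and chr2L:12973963-12975595 at 24796 bp. These also held both isoforms, with SIN3 187HA fold enrichments of 5.95, 8.96 and 6.99 and SIN3 220HA fold enrichments of 4.70, 7.32 and 9.93.

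Most isolated regions held peaks of both isoforms, as did most regions elsewhere. Each isoform was mapped in its own cell line, so a region with both does not show that they bound there together. Of the 244 members, 153 (62.7%, 56.3 to 68.8%) held a filtered peak of each isoform, against 67.0% of all 6219 regions. A further 54 (22.1%, 17.1 to 27.9%) held SIN3 220HA alone, against 24.4% of all regions, so both shares lay near the background. SIN3 187HA alone was held by 37 members (15.2%, 10.9 to 20.3%), against 8.62% of all regions. Among the 4324 regions with no gap of 25000 bp on either side the SIN3 187HA-only share was 7.52% (6.75 to 8.34%), and among the 1630 with 1 such gap it was 10.5% (9.04 to 12.1%). The shares for SIN3 187HA alone thus followed the number of long gaps, and the interval of the isolated regions lay above that of the regions without a long gap. Seen from each isoform, 153 of the 190 members with a SIN3 187HA peak (80.5%, 74.2 to 85.9%) also held SIN3 220HA, against 90.1% (89.0 to 91.1%) of regions without a long gap and 88.6% of all. In the other direction the shares were close: 153 of the 207 members with a SIN3 220HA peak (73.9%, 67.4 to 79.8%) held SIN3 187HA, against 73.6% (72.2 to 74.98%) and 73.3%.

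**Figure D2:**
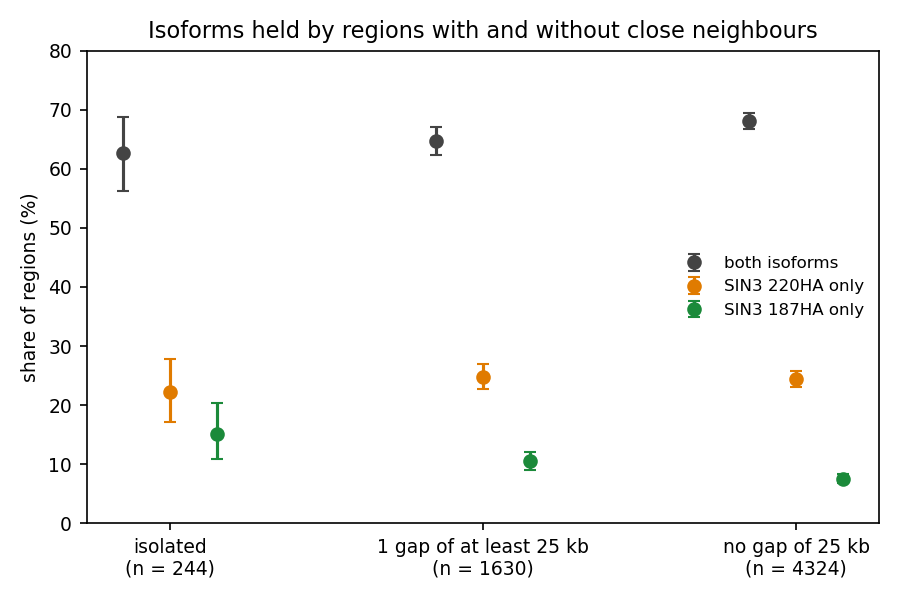
The share of regions in % that held both isoforms, SIN3 220HA alone or SIN3 187HA alone is shown for isolated regions (n = 244), regions with 1 gap of at least 25 kb (n = 1630) and regions with none (n = 4324). Bars are 95% exact binomial intervals, and the SIN3 187HA-only share goes from 7.52% without a long gap to 15.2% in the isolated regions.

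The absence of an isoform from the filtered list does not mean that no peak was called for it. Peaks that failed the filter remain in the unfiltered lists, and of the 91 members with 1 isoform, 50 (54.9%, 44.2 to 65.4%) met such a peak of the other. The share was 76.1% (73.8 to 78.3%) among single-isoform regions without a long gap and 73.7% among all. By isoform, 18 of 37 SIN3 187HA-only members (48.6%, 31.9 to 65.6%) met an unfiltered SIN3 220HA peak, against 66.4% of all SIN3 187HA-only regions. Among SIN3 220HA-only members, 32 of 54 (59.3%, 45.0 to 72.4%) met an unfiltered SIN3 187HA peak, against 76.3%. This leaves 41 members (16.8%, 12.3 to 22.1%) with 1 isoform and no peak of the other in either list, against 8.67% of all regions and 7.63% (6.86 to 8.46%) of those without a long gap. They divide into 19 for SIN3 187HA (7.79%, 4.75 to 11.9%) and 22 for SIN3 220HA (9.02%, 5.74 to 13.3%). For SIN3 187HA the share was 2.89% of all regions, 4.36% with 1 long gap and 2.04% without a long gap. For SIN3 220HA it was 5.77%, 5.71% and 5.60% in the same order.

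The strongest SIN3 187HA-only member was chr3R:19211856-19212336, at 11.7-fold and rank 374 of 4903 SIN3 187HA peaks. No SIN3 220HA peak of either list met it. The next, chr3R:26835625-26836257 at 10.2-fold and chr3L:21762268-21763701 at 7.47-fold, also met none. The last 2 differed in surroundings. The nearest other peak, filtered or not, lay 42867 bp away from the first and 135 bp away from the second. At the first this was the next bound region. The strongest SIN3 220HA-only members were all on X: chrX:13053297-13054074 at 9.91-fold, chrX:16577187-16577966 at 8.78-fold and chrX:15514486-15515267 at 7.69-fold. Each met a SIN3 187HA peak that was itself enriched more than 3-fold but had failed the filter, at 3.52-fold, 3.95-fold and 3.67-fold. Where no SIN3 187HA peak was called in either list, the strongest SIN3 220HA-only members were weaker. These were chr3L:4687097-4687487 at 7.06-fold, chr3R:22328014-22328510 at 6.02-fold and chrX:12097379-12098231 at 5.68-fold. Single-isoform members were short as a whole, with a median width of 481 bp (442 to 577) for SIN3 187HA and 494 bp (419 to 560) for SIN3 220HA, against 890 bp (835 to 963) for members with both. The same order held over all regions, at 579.5 bp for SIN3 187HA alone, 588 bp for SIN3 220HA alone and 1073 bp for both. A region with both spans the peaks of both lists, which can add to its width.

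Pooled over isoform content, isolated regions had a lower median strength and width than regions without a long gap. By isoform class this order did not hold throughout. In regions with both isoforms the median fold enrichment was 5.91 against 6.38 for SIN3 187HA and 6.41 against 7.51 for SIN3 220HA. For SIN3 220HA alone it was 4.38 against 4.49, but for SIN3 187HA alone it was higher in the isolated regions, at 5.05 against 4.53. The fold enrichment is the height of the joined reads at the peak summit relative to input DNA around it, as MACS2 gives it. For SIN3 187HA its median was 5.63 in the isolated regions (5.33 to 5.85, n = 190, range 3.15 to 23.4) and 6.12 (6.0 to 6.21, n = 3269) in regions without a long gap. For SIN3 220HA the medians were 5.61 (5.14 to 6.14, n = 207, range 3.07 to 25.8) and 6.34 (6.22 to 6.47, n = 3999). The intervals of these medians do not overlap for either isoform, which is a description and not a test. Where a long gap lay on a single side, the SIN3 187HA median was 6.06 (5.91 to 6.27). This interval does not overlap that of the isolated regions. The SIN3 220HA median there was 6.22 (6.07 to 6.47), and its interval does overlap that of the isolated regions. The ranges without a long gap, 3.0 to 43.5 for SIN3 187HA and 3.0 to 66.8 for SIN3 220HA, reach higher than those of the isolated regions. Peaks under the median of their own filtered list made up 58.4% (51.1 to 65.5%) of the SIN3 187HA peaks of isolated regions and 58.5% (51.4 to 65.2%) of the SIN3 220HA peaks, against 48.3% and 48.5% without a long gap and 48.9% and 49.4% of all regions. Peaks at or above the 90th percentile of their list made up 20 of 190 members (10.5%, 6.55 to 15.8%) for SIN3 187HA and 17 of 207 (8.21%, 4.86 to 12.8%) for SIN3 220HA, near the 10.3% and 10.2% of all regions.

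**Figure D3:**
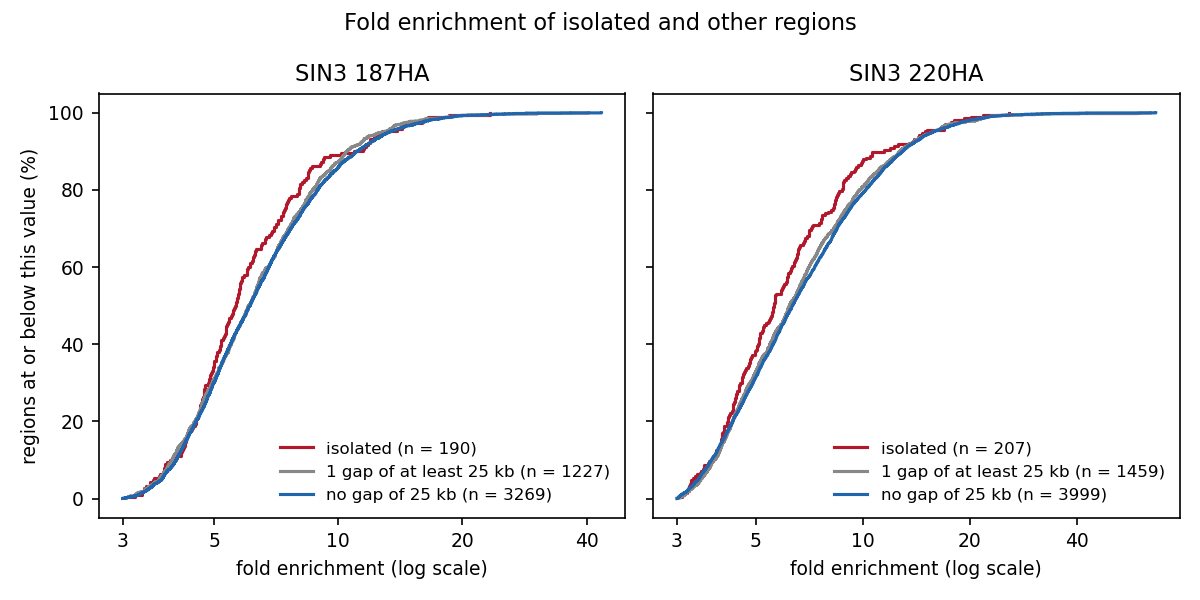
The cumulative share of regions in % is plotted against fold enrichment on a log scale for SIN3 187HA (left) and SIN3 220HA (right), with 1 line each for isolated regions, regions with 1 gap of at least 25 kb and regions with none. The line of the isolated regions runs to the left of the other lines through the middle of both plots, with medians of 5.63 and 5.61, and meets them again among the strongest peaks.

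The pileup and the background behind each ratio were recovered from the fold enrichment and the p-value. The median pileup at the summit was 108 reads (101 to 119) for SIN3 187HA in the isolated regions and 129 (127 to 132) without a long gap. For SIN3 220HA it was 163 (152 to 177) and 197 (192 to 202). Regions with 1 long gap had a median pileup of 122 (118 to 126) for SIN3 187HA and 181 (176 to 189) for SIN3 220HA. The background moved in the same direction by less, with medians of 18.5 (17.8 to 19.8) and 19.9 (19.7 to 20.3) for SIN3 187HA and of 28.0 (26.5 to 30.2) and 29.9 (29.5 to 30.5) for SIN3 220HA. No isolated peak stood on a background of at least 4 times the list median, 0 of 190 and 0 of 207, which allows shares of up to 1.92% and 1.77%. The shares over all regions, 0.744% and 0.440%, lie within these limits. Pileup and background were higher in the filtered SIN3 220HA list as a whole, with a median background of 29.4 against 19.7. Fold enrichments of the isoforms are therefore given side by side and are compared only as percentiles within each list.

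The width of isolated regions had a median of 706 bp (664 to 781, range 220 to 3770), against 914 bp (895 to 936) without a long gap and 823 bp (792 to 860) with 1 such gap. The widest were chrX:10157028-10160797 with 3770 bp, chr2L:15910943-15914262 with 3320 bp and chr3R:11923419-11926486 with 3068 bp. All 3 held both isoforms, at 9.07-fold, 11.8-fold and 13.9-fold for SIN3 187HA and at 8.82-fold, 10.6-fold and 16.9-fold for SIN3 220HA. The narrowest were chr3R:6640858-6641077 with 220 bp, chr3L:4071686-4071910 with 225 bp and the remote 3LHet region with 227 bp, none of them above 4.75-fold for either isoform. Only 9 members (3.69%, 1.70 to 6.89%) held more than 1 filtered peak of an isoform, against 4.78% of all regions.

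Strength and isoform content were related, so the comparison was repeated within classes of strength. All 6219 regions were cut into 5 classes of equal size by the higher fold enrichment of their peaks, whichever the isoform, a measure that mixes the 2 scales. A region with both isoforms takes the higher of 2 values and a single-isoform region has only 1. The rise in the share with both from class to class is therefore partly built in. From the weakest class to the strongest, 11 of 53, 29 of 63, 46 of 55, 37 of 41 and 30 of 32 isolated regions held both isoforms, or 20.8%, 46.0%, 83.6%, 90.2% and 93.8%. Without a long gap the shares were 19.9%, 50.2%, 74.4%, 93.7% and 98.5%. The 2 series cross, and in each of the 5 classes the share without a long gap lay inside the interval of the isolated regions. The SIN3 187HA-only shares of isolated regions were 24.5% (13.8 to 38.3%) and 28.6% (17.9 to 41.3%) in the 2 weakest classes, against 18.5% and 13.4% without a long gap. In the second of these the interval did not reach the other share. In the classes above, SIN3 187HA-only members numbered 3, 1 and 2, at 5.45%, 2.44% and 6.25% (0.77 to 20.8% in the strongest class). In that class 1 of 913 regions without a long gap held SIN3 187HA alone (0.11%), and the 2 isolated ones are the 3R regions at 11.7-fold and 10.2-fold given above. The median widths of isolated regions rose from 490 bp in the weakest class to 582, 786, 928 and 1091 bp in the strongest, against 567, 752, 918, 1154 and 1365 bp without a long gap, lower in the isolated regions in 5 of 5 classes, but the intervals of the medians overlapped in each class.

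Where a region held peaks of both isoforms, their summits nearly coincided. The distance from 1 summit to the other had a median of 19 bp (13 to 27, range 0 to 827), and 121 of 153 members (79.1%, 71.8 to 85.2%) had summits within 100 bp, against 77.9% of all regions with both. The SIN3 220HA peak was the wider in 99 of 153 (64.7%, 56.6 to 72.3%), against 68.1%, and its width was a median of 1.06 times that of the SIN3 187HA peak. It was at least 2 times wider in 14 members (9.15%, against 7.99% of all regions with both), and the SIN3 187HA peak was at least 2 times wider in 4 (2.61%, against 3.14%).

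To compare rank between isoforms, each fold enrichment was given its percentile within its own filtered list. The SIN3 220HA percentile minus the SIN3 187HA percentile had a median of 2.36 points (-1.45 to 5.57) and ranged from -73.4 to 75.9, and the median over all regions with both was 4.51. SIN3 220HA had the higher percentile in 84 of 153 members (54.9%, 46.7 to 62.9%), against 60.4% of all regions with both. Over these 153 regions, which come from the same 2 pooled lists and differ in local depth, the Spearman correlation of the fold enrichments was 0.556, and over 2944 regions without a long gap it was 0.645. These are descriptions across regions and not across samples. The percentiles also depend on the make-up of each list. Over all regions, 1517 of 5683 with a SIN3 220HA peak held that isoform alone, at a median percentile of 24.2. Only 536 of 4702 with a SIN3 187HA peak did so, at a median percentile of 22.1. The larger number of low-ranking peaks raises shared regions in the SIN3 220HA list. The shift of percentiles towards SIN3 220HA is therefore partly built in and does not show stronger binding.

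**Figure D4:**
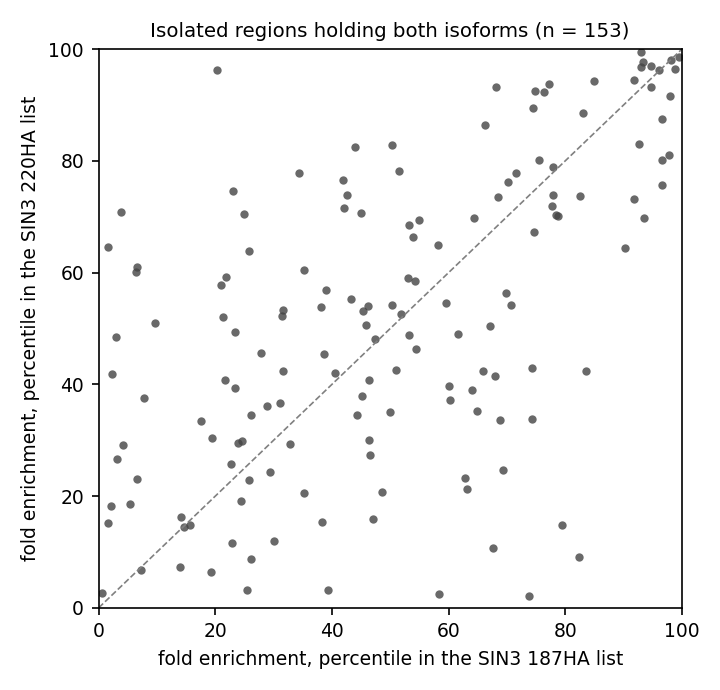
Each of the 153 isolated regions with both isoforms is placed by its fold enrichment percentile in the SIN3 187HA list and in the SIN3 220HA list, with equal percentiles on the dashed line. The points spread widely on both sides of the line, from -73.4 to 75.9 points, and draw together at the top right, where both isoforms were strong.

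The strongest isolated region for SIN3 220HA was chr3R:25417420-25418410, at 25.8-fold (rank 33 of 5810, percentile 99.4), with SIN3 187HA at 11.9-fold (rank 346, percentile 93.0). Its nearest neighbour, chr3R:25443662-25445406, is isolated as well, 25251 bp away. There SIN3 187HA was the higher in rank, at 16.3-fold (percentile 98.0), with SIN3 220HA at 13.5-fold (percentile 91.7). The strongest for SIN3 187HA was chr2R:6532685-6533976, at 23.4-fold (rank 21 of 4903) with SIN3 220HA at 21.8-fold (rank 76). Next for SIN3 187HA were chr3L:21672462-21673573, at 18.6-fold and 17.0-fold in the order SIN3 187HA and SIN3 220HA, and chr2L:21308964-21311788, at 16.5-fold and 20.1-fold. A further strong region, chrX:690310-691243, had 15.9-fold for SIN3 187HA and 10.2-fold for SIN3 220HA. For SIN3 220HA the list went on with chr2L:3711392-3714029, with SIN3 220HA at 19.2-fold and SIN3 187HA at 12.2-fold, and chr2L:12365891-12366595, with 18.0-fold and 12.8-fold. The summits of the isoforms were at most 42 bp apart in all 8 of these regions.

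The percentiles of the isoforms parted furthest in 6 members. SIN3 187HA had the higher percentile at chr3R:2862864-2863401 (9.04-fold at percentile 82.4, against 3.69-fold at percentile 9.09), at chr3L:14356363-14357069 (7.94-fold against 3.21-fold) and at chr2R:10209919-10210289 (8.62-fold against 4.0-fold). SIN3 220HA had the higher percentile at chr2L:14133592-14134320 (16.9-fold at percentile 96.3, against 4.49-fold at percentile 20.3). It was also higher by percentile at chr2R:12403511-12404355 (8.44-fold against 3.57-fold) and at chr3R:4983468-4984079 (7.64-fold against 3.34-fold). Each of these still passed the filter for both isoforms.

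Many isolated regions were not alone once weaker peaks were counted. Peaks left out of the filtered lists lay within 25000 bp of 147 members. They were 364 peaks, 191 of SIN3 187HA and 173 of SIN3 220HA, and some of them lay near more than 1 member. The other 97 members (39.8%, 33.6 to 46.2%) had none. Such peaks were not counted around other regions, so no background share can be set beside these numbers. By isoform, 43 members had such neighbours of SIN3 187HA alone, 29 of SIN3 220HA alone and 75 of both. The unfiltered lists also hold the peaks that passed the filter. Their nearest peak outside the region lay a median of 12450 bp away (range 94 to 159152), and within 5000 bp at 92 members. The 364 filtered-out neighbours were weak, with a median fold enrichment of 2.80 for SIN3 187HA (highest 4.44) and 2.67 for SIN3 220HA (highest 4.12). Even so 114 of the 364 reached 3-fold, at 73 members. Their -log10 p-values were at most 21.22 for SIN3 187HA and 21.91 for SIN3 220HA, just under the lowest values in the filtered lists, 21.62 and 21.92. The most neighbours, 10, were found around chrX:22255979-22257516, and the furthest from any unfiltered peak was the remote 2L region, chr2L:15498920-15501196, at 159152 bp. Members without any such neighbour held both isoforms in 68 of 97 cases (70.1%, 60.0 to 79.0%), and those with at least 1 in 85 of 147 (57.8%, 49.4 to 65.9%). The median SIN3 187HA fold enrichment was 5.69 (5.13 to 6.20) without and 5.56 (5.21 to 6.10) with neighbours, and that of SIN3 220HA 5.62 (5.11 to 6.52) and 5.61 (5.07 to 6.26).

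**Figure D5:**
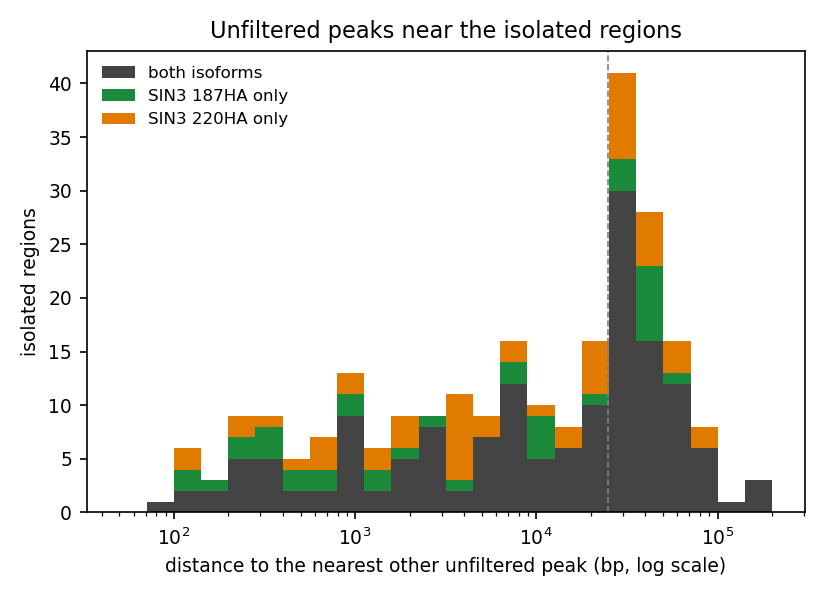
The number of isolated regions is plotted against the distance to the nearest peak of the unfiltered lists outside the region, in bp on a log scale, with bars stacked by the isoforms held and a dashed line at 25 kb. Peaks that passed the filter count here as well. To the left of the line lie the 147 members with a weak peak closer by, spread from 94 bp upwards, and to its right the 97 without one.

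Isolated regions were found on all major arms. There were 53 on 2L of 1080 regions, 36 on 2R of 1250, 47 on 3L of 1326, 59 on 3R of 1504 and 42 on X of 1019, or 4.91%, 2.88%, 3.54%, 3.92% and 4.12%. Chromosome 4 had 5 of 28 (17.9%), and 2RHet and 3LHet had 1 each. Regions on chromosome 4 were thinly spread, with a median gap of 23170 bp against 4584 to 5190 bp on the large arms. Whether this spacing gave the higher share on chromosome 4 was not tested. The large arms were then cut into 10 equal stretches from the telomere to the centromere. The stretch nearest the centromere held 34 isolated regions of 359 (9.47%, 6.65 to 13.0%), and the other 9 stretches between 2.69% and 4.01%. Those 9 stretches held 573 to 784 regions each, so regions were more thinly spread nearest the centromere. Whether this gave the higher share was not tested. The arms differed in the share of isolated regions. The stretch nearest the centromere held 9 isolated regions of 65 on 2L (13.8%, 6.53 to 24.7%), 10 of 51 on 3L (19.6%, 9.82 to 33.1%) and 10 of 131 on 3R (7.63%, 3.72 to 13.6%). On 2R it held 2 of 54 (3.70%, 0.45 to 12.7%) and on X 3 of 58 (5.17%, 1.08 to 14.4%), near the share of the whole arm. On 2L the 7th stretch from the telomere had the higher share, 8 of 43 (18.6%, 8.39 to 33.4%). Of the 34 isolated regions nearest the centromere, both isoforms were held by 24, SIN3 220HA alone by 9 and SIN3 187HA alone by 1. The other regions of that stretch held both isoforms in 188 of 325 cases (57.8%, 52.3 to 63.3%). The isolated regions there held both in 70.6% (52.5 to 84.9%), and those in the rest of the arms in 61.6% (54.5 to 68.3%). The median fold enrichments of the isolated regions nearest the centromere, 5.65 (4.34 to 6.20) for SIN3 187HA and 5.11 (4.03 to 6.14) for SIN3 220HA, overlapped those of the isolated regions in the rest of the arms, 5.69 (5.33 to 6.02) and 5.88 (5.48 to 6.42).

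All 7 members on chromosome 4 and in the assembled heterochromatin had low fold enrichments, none above 4.75-fold for either isoform. On chromosome 4, chr4:715835-717031 held both isoforms at 4.25-fold for SIN3 187HA and 4.0-fold for SIN3 220HA, and chr4:887007-887769 at 4.18-fold and 4.07-fold. The other 3 held SIN3 220HA alone, chr4:226127-226686 at 3.27-fold, chr4:978640-979023 at 4.05-fold and chr4:1144535-1145024 at 4.31-fold. The first of these met a filtered-out SIN3 187HA peak of 3.41-fold and the second one of 3.05-fold, while the third met none. On 2RHet, chr2RHet:471489-472128 held SIN3 187HA at 3.58-fold and SIN3 220HA at 4.75-fold. The 3LHet member had low ratios on a high background, 69.9 for SIN3 187HA and 74.6 for SIN3 220HA. Its pileups, 267 and 333 reads, were above the medians of the isolated regions, 108 and 163.

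Some isolated regions followed each other along a chromosome with only long gaps in between. Of the 244, 155 stood between neighbours that were not themselves isolated, 60 formed 30 pairs, 21 formed 7 sets of 3, and 8 formed 2 sets of 4. The set on 2L, from 22247612 to 22472288, was weak throughout. Its members had SIN3 220HA fold enrichments of 3.80, 3.54, 4.17 and 3.98, the first without SIN3 187HA and the others with it at 3.81-fold, 3.39-fold and 4.21-fold. The set on 2R, from 6532685 to 6670915, was mixed and began with the strongest SIN3 187HA member of all. Along it the SIN3 220HA fold enrichments were 21.8, 4.57, 10.0 and 14.4, and SIN3 187HA was at 23.4-fold in the first, absent from the second, and at 14.3-fold and 12.8-fold in the others.

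Genes could be named only for the 25 members in the first part of 2L, where transcript positions on dm3 were at hand. The strongest of them, chr2L:3711392-3714029, contained the starts of cutlet, a relative of DNA clamp loader subunits, and of CG2818 and CG31955, at 12.2-fold for SIN3 187HA and 19.2-fold for SIN3 220HA. The start of bchs (blue cheese), which acts in the clearance of protein aggregates by autophagy, lay in chr2L:5906798-5908414, at 11.5-fold and 15.2-fold. The starts of oaf and of Slh, the latter a homologue of a vesicle trafficking protein, both lay in chr2L:2492254-2493545, at 7.34-fold and 14.3-fold. The start of Aldh, an aldehyde dehydrogenase gene, lay in chr2L:9386869-9388711, at 11.5-fold for SIN3 187HA and 8.72-fold for SIN3 220HA. Pen, which encodes an importin alpha that carries proteins into the nucleus, had its start in chr2L:10056860-10057996, at 4.62-fold for SIN3 187HA and 8.96-fold for SIN3 220HA.

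S (Star), needed for the trafficking of ligands of the EGF receptor, started in chr2L:1076972-1078305 together with its neighbour ast, at 5.55-fold for SIN3 187HA and 8.85-fold for SIN3 220HA. Ddr, a collagen receptor tyrosine kinase gene, spanned chr2L:6291585-6292106, at 4.75-fold and 5.11-fold. Snoo, the fly member of the Ski and Sno family of regulators of TGF-beta signalling, spanned chr2L:7914229-7915160, at 4.17-fold and 3.58-fold. At SIN3 220HA-only members, Pvf3, a gene for a growth factor of the PDGF and VEGF type, spanned chr2L:7155010-7155625 at 3.94-fold, and RapGAP1, which switches off the small GTPase Rap1, spanned chr2L:7526436-7526822 at 3.33-fold. The third SIN3 220HA-only member of the stretch, chr2L:6127390-6127778 at 4.59-fold, held the start of WDR79, whose human counterpart brings small RNAs to Cajal bodies.

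Other members of the stretch held both isoforms. Ent1, a nucleoside transporter gene, started in chr2L:357676-358095 at 4.98-fold for SIN3 187HA and 6.42-fold for SIN3 220HA. SmE, a core protein of the spliceosome, started in chr2L:7885026-7886419 together with CG34132, at 3.77-fold and 7.15-fold. Wdr62, which acts at the mitotic spindle, started in chr2L:1884251-1885122, at 5.31-fold and 6.55-fold. Rca1, an inhibitor of the anaphase-promoting complex, spanned chr2L:6853704-6854403, at 4.55-fold and 5.55-fold, and l(2)k09022 had its start there. Pgant2, a gene for an enzyme that adds sugars to secreted proteins, spanned chr2L:3413615-3414561, at 5.06-fold and 4.77-fold. CG13689, CG7420 and CG3407 started in chr2L:602454-603009, chr2L:1502442-1503200 and chr2L:3813169-3813588, with SIN3 187HA at 4.63-fold, 6.24-fold and 5.44-fold and SIN3 220HA at 5.45-fold, 7.84-fold and 5.61-fold.

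Among SIN3 187HA-only members of the stretch, bowl, a zinc-finger transcription factor gene of the odd-skipped family, started in chr2L:3778532-3779011 at 5.85-fold, and CG9886 in chr2L:2420581-2420985 at 4.74-fold. A transcript without a matched symbol spanned chr2L:5197054-5197634 at 4.05-fold. No transcript of the annotation used lay at or within 1 kb of the SIN3 187HA-only members chr2L:3573123-3573605, at 5.21-fold, and chr2L:7296073-7296379, at 4.30-fold. The same was true of chr2L:10143322-10143686, which held both isoforms at 4.93-fold for SIN3 187HA and 3.86-fold for SIN3 220HA.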

How the data were processed

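Replicate samples of HA precipitate and input DNA (8 samples, 4 groups, grouped by sample title) were used as deposited. The authors aligned reads to dm3 with Bowtie2, discarded reads without a unique position and ran MACS2 2.1.0 against input, keeping duplicates, per the study's methods. The peak names show that replicates were joined before calling. The values therefore have no replicate error, and duplicates can raise the pileup. Each deposited unfiltered list gives per peak the MACS2 score, fold enrichment (a ratio) and -log10 p-value and q-value as the authors obtained them. It held 9011 SIN3 187HA and 8862 SIN3 220HA peaks. The deposited filtered lists, 4903 and 5810 positions, were recorded under input samples but hold precipitate peaks, described as those past an irreproducible discovery rate limit and 3-fold enrichment. Their starts count from 1.

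Filtered peaks were matched to the unfiltered lists by position, merged where they shared 1 bp and spaced with pandas 2.3.3, numpy 2.4.6 and scipy 1.17.1 in Python 3.11.15. Where a region held several peaks of an isoform, the 1 with the highest fold enrichment gave its values. Pileup and background were solved from fold = (pileup + 1)/(background + 1) and the Poisson p-value. The pileup was whole within 0.05 for all 190 and 207 member peaks. The depth of each sample is not given in the files used. No p-values were computed, since there is 1 list per isoform. The code was tested on simulated data.

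Members and lists were chosen with earlier results of these data known. Regions named were those of highest fold enrichment per isoform class, longest gaps, extreme width, largest percentile difference, nearest to the 25000 bp limit, or on chromosome 4 and heterochromatin, and those in the annotated part of 2L. The largest neighbour count was named after its value was seen. Gene names rest on dm3 transcript positions in the study's supplement, of which a part was held, with RefSeq symbols for 1862 of 1981 transcripts. Sequences are not reported here. Alternatives tried were other gap limits, merging distances, enrichment limits, peak lists and chromosome sets. Figures were drawn with matplotlib 3.10.9.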

Additional observations from a re-analysis of the deposited data

How the results depend on the processing

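Over 8 results and 11 alternatives, 74 values stayed within their counting interval or within 1.5 times the count, and 12 moved. The number of isolated regions fell from 244 to 78 with a limit of 50000 bp, where the median SIN3 187HA fold enrichment was 5.31. With peaks of at least 4-fold the median SIN3 220HA fold enrichment was 6.15. With peaks of at least 5-fold the SIN3 187HA median was 6.98 and the SIN3 220HA median 7.36, the median width was 886 bp, 22.1% of isolated regions had no further unfiltered peak within the gap, and 81.1% of single-isoform regions met an unfiltered peak of the other isoform. A higher limit removes weak peaks, which raises these medians by construction. With the unfiltered lists the medians were 3.80 and 3.85, the width was 412 bp, and 47.3% held both isoforms. The share of regions meeting an unfiltered peak and that without a further unfiltered peak are not defined for those lists. No paired analysis was possible because peaks were called on joined replicates and no test was made, and for the same reason no replicate could be left out. What depth limits could not be assessed, since no depth per sample was at hand.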
